A study of Mus musculus with 6 samples.

Results

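Atf3, Ppp1r15a and Trib3 encode a transcription factor, a phosphatase subunit and a pseudokinase of the integrated stress response. They were followed in NIT-1 cells, a mouse pancreatic beta cell line, with and without cadmium. The 3 genes were chosen by name, each under its single platform gene symbol and on its brightest probe, from 18884 genes measured in that way, and each had 1 probe. They were chosen with results of these data already known.

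Gene expression was read on 6 arrays of biotin-labelled total RNA. Cells were kept for 24 h in culture and then for 24 h more, either in medium alone (control, 3 arrays) or in medium with 4 µmol/L CdSO4 (cadmium, 3 arrays), a dose chosen by the study to cause oxidative damage. Both groups were grown in the same medium with serum, penicillin and streptomycin. NIT-1 is a single line that came from a beta cell tumour of a mouse carrying a viral oncogene under an insulin promoter, and it was sampled here at 1 dose and 1 time. By their labels the arrays are biological replicates. Nothing states how far the cultures were kept apart, in passage or in time, and every p-value therefore measures only the spread between these cultures, which may be technical.

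In the integrated stress response, kinases that sense misfolded proteins, lack of amino acids, haem imbalance or double-stranded RNA phosphorylate the alpha subunit of the translation factor eIF2. General protein synthesis then slows while translation of the transcription factor ATF4 rises, and ATF4 with its partners switches on genes of amino acid supply, tRNA charging and stress signalling. Atf3 encodes a bZIP factor induced by this pathway and by other stresses. Ppp1r15a encodes GADD34, which brings protein phosphatase to eIF2 and so closes a feedback loop, and Trib3 encodes a pseudokinase that binds ATF4, CHOP and AKT. Beta cells are known to rely on this control because of their heavy load of secretory protein. The arrays read RNA, so neither phosphorylation nor translation was measured.

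The promoters are shown because the 3 genes are known to answer to shared regulators, whose sites can be looked for there. All 3 were found by symbol in the RefSeq promoter table of build GRCm38.p6. The bases just before each gene's start are printed 5′ to 3′ on the gene's strand, 250 for each gene. Capitals mark matches to the C/EBP-ATF composite site bound by ATF4 (TGATGNAAN), the cyclic AMP response element (TGACGTCA) or its variant TTACGTCA, searched on both strands.
Atf3, chr1:191183334-191183583, minus strand: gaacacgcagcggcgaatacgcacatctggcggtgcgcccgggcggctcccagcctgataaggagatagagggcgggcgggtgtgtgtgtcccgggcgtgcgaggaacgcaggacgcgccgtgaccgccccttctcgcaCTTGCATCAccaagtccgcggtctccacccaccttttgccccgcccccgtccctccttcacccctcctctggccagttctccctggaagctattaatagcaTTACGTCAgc
Ppp1r15a, chr7:45526269-45526518, minus strand: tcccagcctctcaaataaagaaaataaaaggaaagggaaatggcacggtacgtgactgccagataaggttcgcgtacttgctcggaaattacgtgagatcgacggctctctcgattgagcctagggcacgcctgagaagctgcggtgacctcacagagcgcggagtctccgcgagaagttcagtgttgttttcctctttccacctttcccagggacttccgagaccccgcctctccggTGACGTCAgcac
Trib3, chr2:152344061-152344310, minus strand: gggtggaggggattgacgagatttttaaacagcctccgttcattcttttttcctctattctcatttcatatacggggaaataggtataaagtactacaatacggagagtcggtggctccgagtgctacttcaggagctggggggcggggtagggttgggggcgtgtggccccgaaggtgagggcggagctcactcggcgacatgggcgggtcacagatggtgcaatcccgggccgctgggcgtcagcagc
In the Atf3 promoter the composite site lay at positions -111 to -103 and the variant cyclic AMP response element at -10 to -3. In the Ppp1r15a promoter a full cyclic AMP response element lay at -12 to -5. The Trib3 promoter held none of these letters before the start, and a composite site match lay just past it, at positions 14 to 22 in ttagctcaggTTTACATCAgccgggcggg. The composite site was found in 3.95% of the 32851 promoters in the table, read over 300 bases that include 50 past the start, the cyclic AMP response element in 1.79% and the variant in 0.499%. No 2 of these matches overlapped.
Over the same windows, the heat shock element letters GAANNTTC, present in 7.86% of promoters, were in none of the 3. The antioxidant response element core TGACNNNGC, present in 12.4%, was in Ppp1r15a at positions 4 to 12. The metal response element core was searched as TGCGCNC, present in 15.4% and found in Atf3 at -217 to -211, and as TGCACNC, present in 12.6% and found in none of the 3. These are matches of letters, and binding was not measured.

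Values are deposited signals, taken as log2, and changes are cadmium minus control, so each fold change assumes base 2. As a measure of background, the 95th percentile of the negative control probes averaged 6.18 over the arrays. The bound is approximate, since a negative control value may combine another number of probes than a gene's value does. The share of all genes above it was not counted, but most genes lay below it. On cadmium replicate 2, for instance, Trib3 was below the bound at 5.92 and brighter than 85% of genes. In RNA from a whole culture, a lower level in each cell and fewer cells expressing a gene cannot be told apart. Among all genes, limma called 2301 of 18884 at an adjusted p under 0.05, which is 12.2%, with 6.47% higher and 5.72% lower with cadmium. That total was 1182, 1139, 1145 and 1178 without control replicate 1, control replicate 2, cadmium replicate 2 and cadmium replicate 3. The groups did not overlap in 35.9% of genes, and cadmium lay above control in 22.9%. On the second principal component, with 15.6% of the variance, control replicate 3 and cadmium replicate 1 lay at -12.4 and -11.6 and the other arrays between 5.6 and 6.3. Of 10 measured beta cell markers 0 had a group mean above the bound, with Ins2, which encodes insulin, at 5.27 ± 0.10 in control and 5.29 ± 0.04 in cadmium arrays (SD, n = 3). Only Kcnj11 of these markers was called, higher with cadmium, and it no longer passed (adjusted p up to 0.135) without any 1 array other than cadmium replicate 3, with arrays centred or with the replicate number as a block. Of 7 markers of other islet, exocrine, stromal and immune cells 1 was called, the collagen gene Col3a1, which was lower. The rest lay below the bound. The mean signal of Col3a1 was 9.07 ± 0.13 without cadmium and 8.06 ± 0.17 with it (SD, n = 3), 2.01-fold lower (limma adjusted p = 0.00182). It was the only gene of both marker lists with a group mean above the bound, a level that list medians do not show. The array medians of these marker lists ran from 3.99 to 4.15 in control and 4.06 to 4.18 in cadmium arrays for beta cells, and from 4.29 to 4.33 and 4.28 to 4.33 for other cells.

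Atf3 and Ppp1r15a rose with cadmium and Trib3 did not pass the test, so 2 of 3 were called against the 6.47% of all genes called higher. Calls depended on signal level. Of genes within 0.5 of the mean signal of Atf3, Ppp1r15a and Trib3, 23.7%, 14.5% and 20.6% were called in either direction. The signal of Atf3 was 5.51, 5.74 and 5.64 on control replicates 1 to 3 and 6.43, 6.88 and 6.74 on cadmium replicates 1 to 3. Every cadmium array lay above every control array, by at least 0.69, while the spread within a group was at most 0.45. The mean went from 5.63 ± 0.11 to 6.69 ± 0.23 (SD, n = 3), a change of 1.05 ± 0.12 (SE, limma adjusted p = 0.00249). The control signal lay below the bound on each array and the cadmium signal above it. With each control array raised to its own negative control percentile, the rise was at least 1.41-fold.

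The Ppp1r15a signal was 4.52, 4.55 and 4.64 on the control arrays and 5.27, 5.07 and 5.04 on the cadmium arrays. The groups did not overlap, with a gap of 0.39 between the lowest cadmium and the highest control array, and cadmium replicate 1 was the highest array, where for Atf3 it was the lowest of the cadmium arrays. The mean rose from 4.57 ± 0.06 to 5.13 ± 0.13 (SD, n = 3), a change of 0.55 ± 0.08 (SE, limma adjusted p = 0.00491). Both means lay below the bound, so no fold is given. On each array between 82.3% and 89.4% of the negative control probes were dimmer than Ppp1r15a.

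Trib3 was read at 5.29, 5.47 and 5.86 on the control arrays and at 5.81, 5.92 and 5.82 on the cadmium arrays. Control replicate 3 lay among the cadmium arrays, above 2 of them, so the groups overlapped by 0.05, and the other control arrays lay below every cadmium array. The means were 5.54 ± 0.30 and 5.85 ± 0.06 (SD, n = 3), both below the bound. The difference was 0.31 ± 0.14 (SE, 95% interval -0.01 to 0.63, limma adjusted p = 0.189), an interval that includes rises as large as that of Ppp1r15a. The 3 control arrays spanned 0.58 and the 3 cadmium arrays 0.11. A smaller control SD than that of Trib3 was found in 97.8% of all genes, and a smaller cadmium SD in 37.1%.

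**Figure D1:**
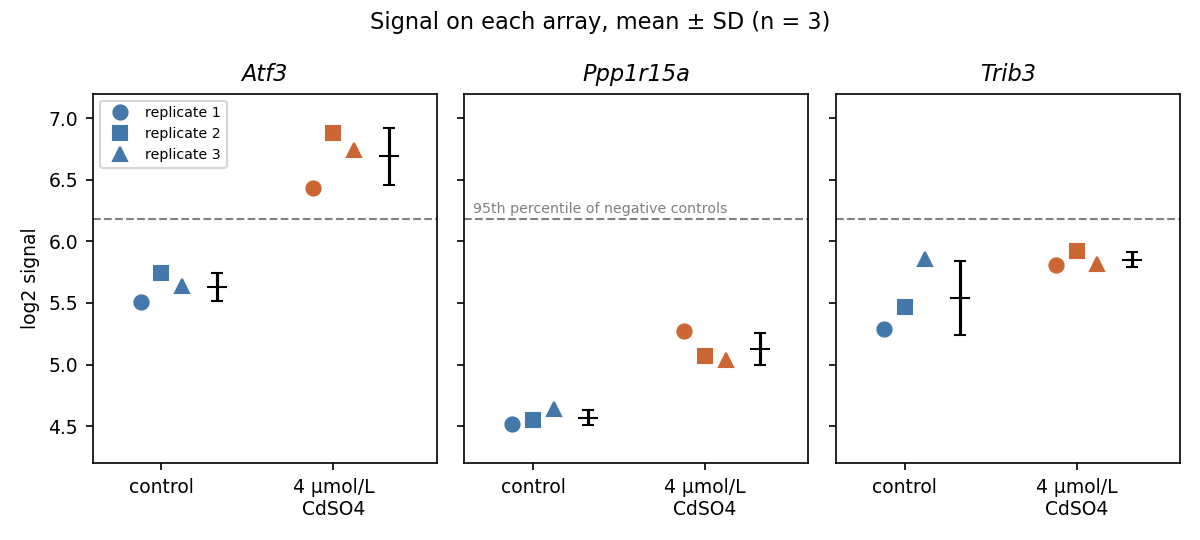
Log2 signal of Atf3, Ppp1r15a and Trib3 on each array, with control arrays in blue, cadmium arrays in orange, the replicate number shown by the marker and the mean ± SD (n = 3) in black. Cadmium and control arrays are apart for Atf3 and Ppp1r15a, while Trib3 on control replicate 3, at 5.86, sits among the cadmium arrays. The dashed line is the bound of 6.18.

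The 3 changes were compared within arrays, as the signal of 1 gene minus that of another, where the level of the difference includes the brightness of the probes and only its change is read. The change of Atf3 exceeded that of Trib3 by 0.74, and the groups did not overlap in this measure (exact permutation p = 0.1, adjusted p = 0.3 over 3 pairs, two-sided). It exceeded that of Ppp1r15a by 0.50 (exact permutation p = 0.2, adjusted p = 0.3), and the change of Ppp1r15a exceeded that of Trib3 by 0.25 (exact permutation p = 0.3, adjusted p = 0.3), with groups that overlapped. With 3 arrays against 3 the smallest p this permutation test can give is 0.1, so it could not pass the threshold, and no model-based test of these differences was run.

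The arrays differed in how the 3 genes were ordered. Control replicate 3 exceeded the mean of the other control arrays by 0.49 for Trib3, by 0.11 for Ppp1r15a and by 0.01 for Atf3, and 98.4% of all genes had a smaller offset than Trib3. Cadmium replicate 1 lay 0.38 below the other cadmium arrays for Atf3, 0.06 below for Trib3 and 0.22 above for Ppp1r15a. Without control replicate 3, the change of Trib3 was 0.47 ± 0.08 (SE) and passed the test (limma adjusted p = 0.0154). Leaving out its highest control array raises the change of Trib3 by construction, so this value is a description. Without control replicate 1, control replicate 2, cadmium replicate 1, cadmium replicate 2 or cadmium replicate 3 no call was made, and the changes were 0.18, 0.27, 0.33, 0.27 and 0.33. Atf3 and Ppp1r15a passed whichever single array was left out, with adjusted p of up to 0.017 and 0.0282.

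**Figure D2:**
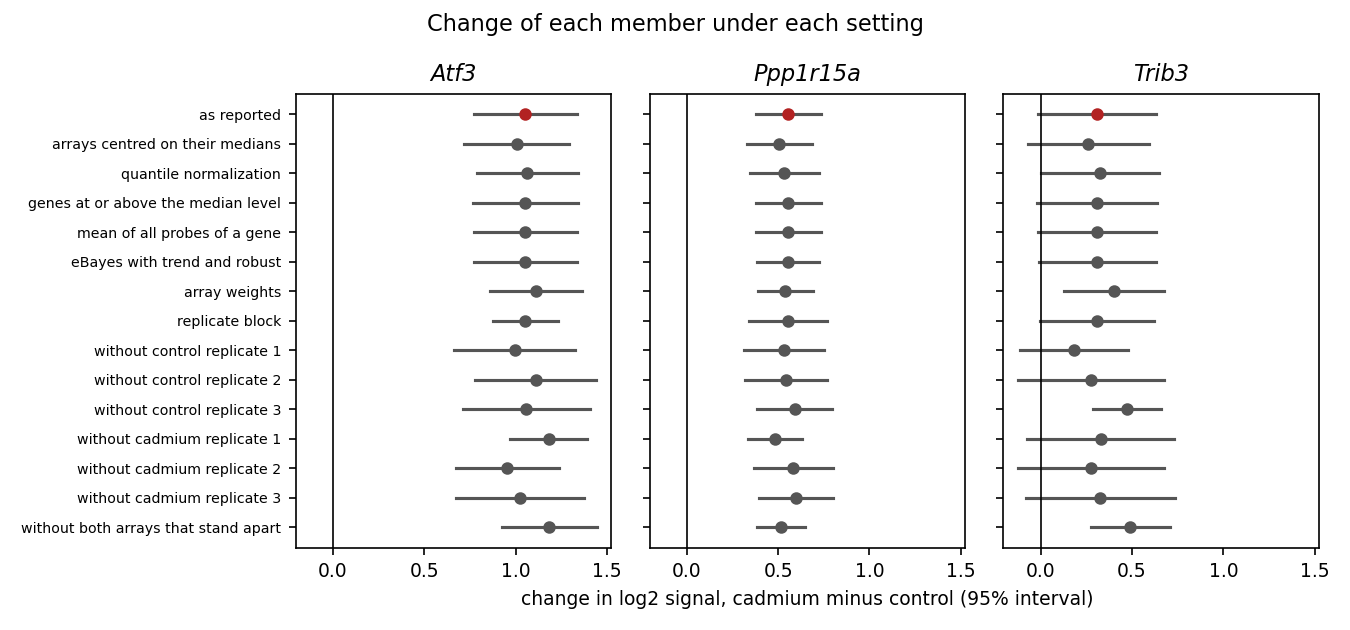
Change in log2 signal of each gene, cadmium minus control, with its 95% interval, as reported (red) and under each alternative setting (grey). The interval of Atf3 and of Ppp1r15a lies above 0 in every setting. That of Trib3 lies above 0 with quantile normalization, with array weights, without control replicate 3 and without both control replicate 3 and cadmium replicate 1. It includes 0 in the others. Without control replicate 3 the change of Trib3 is 0.47. The intervals are not adjusted for the number of genes.

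Around these genes, 8 lists of the pathway held 86 other genes, of which 45 were measured. Of the 45, 4 were higher and 4 lower with cadmium, 17.8% against the 12.2% of all genes, and 37 did not pass. The 17.8% lies within the 14.5% to 23.7% called among genes near the signal levels of the 3 members. The shares of all genes set beside the lists below are likewise not matched for signal level. The groups did not overlap in 17 of them, 37.8%, close to the 35.9% of all genes. Their median change was 0.18, where that of all genes was 0.044, and 0.13 with each array centred on its median, where that of all genes was -0.004. Both group means lay above the bound for 17 of the 45, 1 mean for 1 gene and neither for 27, where most of all genes lay below it. Atf4, Ddit3, which encodes CHOP, Eif2ak2, Trib1 and Trib2 were not analysed here.

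**Figure D3:**
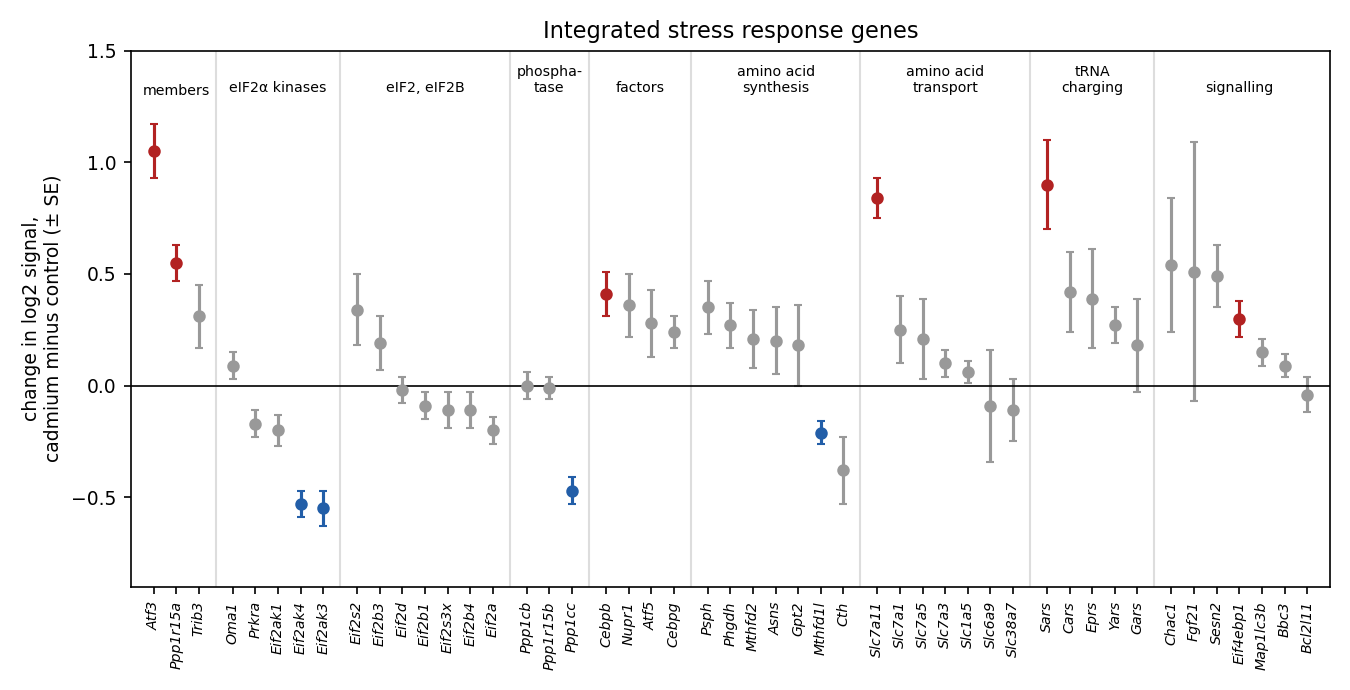
Change in log2 signal, cadmium minus control, with its SE for Atf3, Ppp1r15a and Trib3 and for the 45 other measured genes of the pathway, grouped by role. Red points passed as higher, blue points as lower and grey points did not pass, and the kinase genes Eif2ak3 and Eif2ak4 are the lowest of all at -0.55 and -0.53.

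At the head of the pathway, 2 of 5 measured genes of eIF2 kinases and their activators fell and 0 rose, where 5.72% of all genes were lower and 6.47% higher. At an unadjusted p under 0.05 the counts were 4 lower and 0 higher. Such p-values were common, since Trib3, at an unadjusted limma p of 0.0584, ranked 5831 among the 18884 genes by p. This bears on the unadjusted counts of the lists below as well. Eif2ak3, which encodes PERK, the kinase of the endoplasmic reticulum, was at 5.82, 5.83 and 5.63 on control and 5.32, 5.16 and 5.16 on cadmium arrays, a change of -0.55 ± 0.08 (SE, limma adjusted p = 0.00553). Eif2ak4, which encodes GCN2, the sensor of uncharged tRNA, was at 5.18, 5.16 and 5.19 and at 4.74, 4.56 and 4.62, a change of -0.53 ± 0.06 (SE, limma adjusted p = 0.0025). In both genes every cadmium array lay below every control array, at signals under the bound. Eif2ak1, which encodes the haem-regulated kinase, was at 4.99 ± 0.05 and 4.79 ± 0.11 (SD, n = 3; limma adjusted p = 0.106).

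Among the 7 measured genes of eIF2, its exchange factor eIF2B and related initiation factors 0 passed, where 12.2% of all genes did. At an unadjusted p under 0.05, a cut that many genes passed, the counts were 0 higher and 1 lower. Without control replicate 3, its highest control array, the eIF2B subunit gene Eif2b3 passed as higher, by 0.34 (limma adjusted p = 0.0307). Leaving that array out raises the change by construction. Of the genes that act with Ppp1r15a, Ppp1cc, which encodes a catalytic subunit of protein phosphatase 1, fell. Its signal was 8.51, 8.51 and 8.62 on control and 8.17, 8.05 and 8.03 on cadmium arrays, above the bound throughout and 1.38-fold lower with cadmium (limma adjusted p = 0.00418). Ppp1r15b, the constitutive counterpart of Ppp1r15a, was at 5.20 ± 0.06 and 5.19 ± 0.03 (SD, n = 3), a difference of -0.01 with a 95% interval of -0.13 to 0.12. Ppp1cb, another catalytic subunit, was at 6.49 in both groups. The calls of Eif2ak3, Eif2ak4 and Ppp1cc held when any single array was left out, with an adjusted p of up to 0.0299.

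Of 4 measured transcription factors of the response 1 rose and 3 did not pass, where 6.47% of all genes were higher. Cebpb, a bZIP partner of ATF4, was at 7.50, 7.60 and 7.81 on control and 7.89, 8.06 and 8.20 on cadmium arrays, and rose 1.33-fold (limma adjusted p = 0.0458). It no longer passed (adjusted p up to 0.137) without control replicate 1, control replicate 2, cadmium replicate 2 or cadmium replicate 3, and also with arrays centred or quantile normalized. Nupr1, Atf5 and Cebpg, which encode further stress-induced factors, differed by 0.36, 0.28 and 0.24 and did not pass.

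Of the 26 measured target genes of ATF4, in 4 lists, 3 rose and 1 fell, where 6.47% of all genes were higher and 5.72% lower, so the count of lower genes is near that share. Slc7a11, the cystine transporter, was at 3.71, 3.80 and 3.99 on control and 4.57, 4.81 and 4.65 on cadmium arrays, below the bound, a change of 0.84 ± 0.09 (SE, limma adjusted p = 0.00236). Sars, the seryl-tRNA synthetase, was at 6.54, 6.58 and 7.35 on control and 7.70, 7.74 and 7.72 on cadmium arrays, a rise of 1.86-fold (limma adjusted p = 0.0306). Here too control replicate 3 stood towards the cadmium arrays. Eif4ebp1, an inhibitor of cap-dependent translation, rose by 0.30 and Mthfd1l, of mitochondrial folate metabolism, fell by 0.21 (limma adjusted p = 0.0459 and 0.0302). The call of Sars was lost without any 1 array other than control replicate 3, with an adjusted p of up to 0.104. That of Eif4ebp1 was lost without the same 5 arrays, up to 0.141, and also with arrays centred or with the replicate number as a block. That of Mthfd1l was lost without any 1 of the 6, up to 0.101, and with the block.

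The position of Trib3 on control replicate 3 was shared by most of these target genes. In 22 of the 26, or 84.6%, control replicate 3 was the highest control array, as it was in 36.8% of all genes. Its offset over the other control arrays had a median of 0.46 in the 26 genes and of 0 in all genes, and exceeded 0.3 in 16 of the 26 and in 5.44% of all genes. Fgf21, which encodes a secreted stress hormone, was at 5.40, 5.58 and 7.74 on control and 6.33, 7.00 and 6.92 on cadmium arrays. Its highest signal was thus on a control array. Asns, asparagine synthetase, was at 6.11, 6.11 and 6.70 on control and 6.52, 6.52 and 6.49 on cadmium arrays, and Gars, glycyl-tRNA synthetase, at 7.96, 7.98 and 8.78 and at 8.52, 8.34 and 8.42. In both, control replicate 3 exceeded all cadmium arrays and the other control arrays lay below them. Slc6a9, a glycine transporter, was at 6.27, 6.24 and 7.12 on control and 6.75, 6.37 and 6.23 on cadmium arrays, with 2 of the cadmium arrays near the low control arrays.

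**Figure D4:**
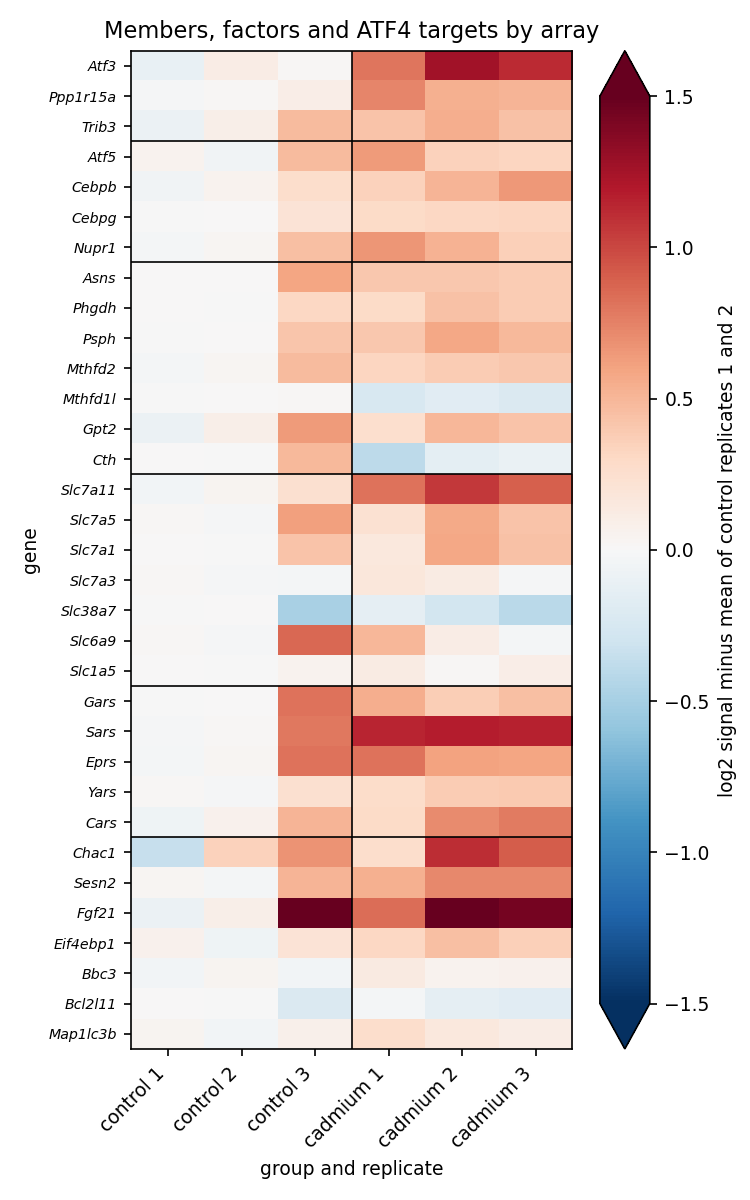
Log2 signal minus the mean of control replicates 1 and 2 on each array (columns), for Atf3, Ppp1r15a and Trib3, the 4 transcription factors and the 26 target genes of ATF4 (rows, lists separated by lines). Control replicate 3 is raised for Trib3 by 0.49 and for Fgf21 by 2.24 but not for Atf3, at 0.01, and the scale ends at 1.5.

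The number of pathway genes called depended on control replicate 3 more than on any other single array. Without it 16 of the 45 genes were higher, 35.6% against 5.86% of all genes, and 3 were lower, where 5.39% of all genes were. Among them were Asns at 0.40, the serine synthesis genes Phgdh and Psph at 0.37 and 0.49, the stress sensor gene Sesn2 at 0.66, Eprs, a glutamyl-prolyl-tRNA synthetase, at 0.67, Fgf21 at 1.26 and Sars at 1.16 (limma adjusted p = 0.00715, 0.019, 0.00873, 0.00524, 0.00595, 0.0149 and 0.000547). Control replicate 3 was the highest control array in 38 of the 45 genes, these among them. Leaving it out raises their changes by construction, so these values are a description. Without control replicate 1, control replicate 2, cadmium replicate 2 or cadmium replicate 3 the count of higher genes was 1. The total of called genes fell as well in these fits, from 2301 to 1182, 1139, 1145 and 1178. Without cadmium replicate 1 the count of higher genes was 2, where 6.99% of all genes were higher and 5.51% lower. Without both control replicate 3 and cadmium replicate 1, an alternative chosen after seeing the data, it was 22, against 8.3% of all genes, and 5 genes were lower, where 7.04% of all genes were. Atf3 changed by 1.19, Ppp1r15a by 0.52 and Trib3 by 0.49 in that comparison of 2 arrays with 2, and all 3 passed (limma adjusted p = 0.00461, 0.00638 and 0.0242). Each single array was left out in turn by plan, while the 2 arrays left out together were picked by their place on the second principal component, so the counts without both are a description. What set that array apart was not tested.

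In the other arms of the unfolded protein response, led by XBP1 and ATF6, 0 of 8 measured genes rose, also at an unadjusted p under 0.05, and 1 fell, where 5.72% of all genes were lower. Mbtps1, the protease that activates ATF6, was at 6.42, 6.47 and 6.65 on control and 6.01, 5.81 and 5.71 on cadmium arrays, and its level fell at least 1.27-fold (limma adjusted p = 0.00598). In all 8 genes cadmium replicate 1 was the highest cadmium array, by a median of 0.37 over the others, where it was highest in 37.5% of all genes. The chaperone gene Hyou1 was at 6.53, 6.58 and 6.47 on control and 7.03, 6.21 and 6.13 on cadmium arrays, so 1 cadmium array lay above all control arrays and the others below them. Hspa5, which encodes the chaperone BiP, differed by 0.13 (95% interval -0.12 to 0.37). The count of lower genes became 2 when control replicate 3 was left out, 4 when cadmium replicate 1 was, and 6 when both were. In these fits 5.39%, 5.51% and 7.04% of all genes were lower. Leaving out cadmium replicate 1, the highest cadmium array in all 8 genes, lowers their changes by construction, so these counts are a description. The highest signal of Ppp1r15a was on cadmium replicate 1 as well, while that of Atf3 and of Trib3 was on cadmium replicate 2.

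Among 8 measured relatives and bZIP partners of Atf3, 2 rose and 1 fell, where 6.47% of all genes were higher and 5.72% lower. Jun, which can pair with ATF3, was at 5.05, 4.96 and 5.29 on control and 5.62, 6.35 and 6.28 on cadmium arrays, a change of 0.98 ± 0.19 (SE, limma adjusted p = 0.0197) with cadmium replicate 1 lowest of the cadmium arrays, as for Atf3. It no longer passed (adjusted p up to 0.0765) without control replicate 1, control replicate 2, cadmium replicate 2 or cadmium replicate 3. Mafk, a small Maf protein, rose by 0.57 and the cyclic AMP response factor Creb1 fell by 0.60, to 1.52-fold lower (limma adjusted p = 0.00331 and 0.00182). Of 2 measured partners of Trib3, Cop1, a ubiquitin ligase recruited by Tribbles proteins, fell by 0.32 (limma adjusted p = 0.00879), and Akt2 differed by 0.13 and did not pass.

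The genes most like each member over the 6 arrays were ranked by Pearson correlation among 6559 protein-coding genes at or above the median signal of 4.16. The arrays form 2 groups, so a high value mostly reflects the difference between them, and no test is given. The closest to Atf3 were Swap70, Babam2 and Igsf9b, with r of 0.997, 0.995 and 0.994, and 255 genes exceeded 0.95. The closest to Ppp1r15a were Cyren, Psmd9 and Col4a2, with r of 0.999, 0.998 and 0.996, and 145 genes exceeded 0.95. For Trib3 they were Zfhx3, Rnf34 and Crygf, with r of 0.993, 0.984 and 0.982, and 23 genes exceeded 0.95. Zfhx3 was at 6.05, 6.17 and 6.45 on control and 6.41, 6.44 and 6.43 on cadmium arrays, with control replicate 3 raised as for Trib3.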

How the data were processed

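The values deposited by the authors are 1 signal per transcript cluster and array. The log2 scale of the deposited values is inferred from their range, and how they were background corrected and normalized, and with which software, is information not given in the sources used here. The table held 39746 transcript clusters and 6732 control rows, 5222 of them negative controls, and the number of columns of values without a sample was 0. Genes were named from the platform annotation and updated through RefSeq of GRCm38.p6. A cluster counted as having 1 gene where its names reduced to 1 symbol and at most 1 gene identifier. This held for 19099 clusters. Another 1046 listed more than 1 gene and stayed unnamed, and 19601 listed none. The brightest probe stood for each gene.

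Groups and replicate numbers came from the titles. The source names number the control arrays differently, each 1 higher, so the block and the correlations between same-numbered arrays hold for the numbers in the titles. The test was two-sided, by limma 3.58.1 (lmFit, then eBayes) under R 4.3.3, on all 6 arrays with no covariate. The p-values of all 18884 genes were adjusted together by Benjamini-Hochberg, and 0.05 was the threshold. The number of arrays limits the precision. Member pairs were compared by exact permutation. The members and gene lists were chosen with earlier results of these data known, and lists are described by counts and medians. Named are list genes past the threshold (up to 4 per list and direction with the lowest p), textbook parts of the pathway, and the 3 genes most correlated with each member. Other genes, among them Hyou1, Gars, Slc6a9, Eprs, Phgdh, Psph, Fgf21 and Eif2b3, were named after their values were seen. Alternatives covered scaling, a filter on level, the probe rule, the variance model, weights per array, a block for the replicate number, and leaving out each array. Correlations of deviations from the group mean between same-numbered arrays were -0.11, 0.06 and -0.11, so the numbers were not taken as pairs. The limma fit was tested on simulated data. Figures were drawn with matplotlib 3.10.9.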

Additional observations from a re-analysis of the deposited data

How the results depend on the processing

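Atf3 and Ppp1r15a kept their direction and their calls in all 14 alternatives run, with adjusted p of 0.000771 to 0.017 and of 0.00184 to 0.0282, and with 1 array left out their changes ranged from 0.96 to 1.18 and from 0.48 to 0.60. Trib3 did not pass in 12 of 14 alternatives, and passed without control replicate 3, at 0.47, and without both arrays that stand apart, at 0.49. Both of these leave out its highest control array, which raises its change by construction. With 1 array left out its change ranged from 0.18 to 0.47. With array weights its change was 0.40 (adjusted p = 0.054). The differences between the changes of the 3 genes kept their sign in all 9 alternatives each. Some alternatives could not move a change or a difference and bear only on the tests. These are the probe rule, as each gene had 1 probe, the replicate block, the filter on level and the variance model.

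The count of all called genes, 2301, ranged from 1139 to 2360 with 1 array left out. With the replicate number as a block it was 1386, and the calls of Atf3 and Ppp1r15a and the absence of one for Trib3 did not change, at adjusted p of 0.00353, 0.0245 and 0.195. The count of higher pathway genes, 4, was 2 with arrays centred, 7 with dim genes filtered out, 2 with trend and robust, 11 with array weights, 3 with the replicate block, 1 to 16 with 1 array left out and 22 without both arrays. The total of called genes was 2334 with arrays centred, 2398 with the filter, 2334 with trend and robust and 3384 with array weights. Shares by direction were not counted for these settings. The count of lower pathway genes was 3 to 6 in all alternatives. In the XBP1 and ATF6 list the count of lower genes, 1, was 2 with array weights, 1 to 4 with 1 array left out and 6 without both arrays, and 0 were higher in any alternative. The cause of these shifts was not tested. Signals near those of the negative controls limit how far a change of Ppp1r15a or Trib3 can be read as a fold.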
